A study of Mus musculus with 17 samples.

Results

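The early response to lipopolysaccharide (LPS, a component of the outer membrane of Gram-negative bacteria) was followed in macrophages that lack Nur77, the nuclear receptor encoded by Nr4a1. Open chromatin was mapped by ATAC-seq, a method based on the preference of Tn5 transposase for DNA free of nucleosomes, and each sample had 1 deposited list of peaks. The comparison set 3 Nur77-deficient (KO) samples given LPS for 1 h against 3 KO samples without LPS (0 h), which makes 6 of the 17 lists of the series. Each list was reduced to its 24389 best peaks by p-value, the number in the shortest of the 17 lists, and peaks that overlapped were merged into 34180 consensus sites seen in at least 2 of the 17 lists. Of these sites, 31002 carried a peak in at least 1 of the 6 KO lists and 14775 carried one in all 6. A site was called gained when all 3 KO 1 h lists and no KO 0 h list carried a kept peak there, which held for 1613 sites (4.72%), and lost in the opposite case, which held for 1180 sites (3.45%).

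All cells were bone marrow-derived macrophages from male C57Bl6/J mice of 6 to 12 weeks, grown for 7 days with L929-conditioned medium, which supplies macrophage colony-stimulating factor. The KO mice carried a whole-body deletion made by crossing a loxP-flanked Nr4a1 locus to a Cre transgene under the CMV promoter, and were then bred free of Cre. The genotype field of the KO samples reads "cre", while their titles read KO. LPS was given at 100 ng/ml, and WT littermate cells at 0 h (3 lists) and 1 h (2 lists, 1 of them named replicate 1-2) served only as a check.

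When LPS binds Toll-like receptor 4 with its co-receptors CD14 and MD-2, signalling through MyD88 and TRIF releases NF-kB dimers into the nucleus and activates the AP-1 factors of the Jun and Fos families. These factors act at enhancers that the lineage factors PU.1 and C/EBP have prepared, and the first genes to respond encode cytokines, chemokines and the inhibitors that later stop the signal. Nur77 is itself an immediate-early gene of this response, and binds the NBRE motif as a monomer.

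The following stretches of 201 bp, centred on the summit, are shown because they are among the best-ranked gained and lost sites and hold a searched motif. They are from the + strand of GRCm38 (mm10), 5′ to 3′, in lower case. Capitals mark an NF-kB motif at Il12b, Nfkb1 and St3gal1, the AP-1 motif TGAGTCA at Tnfaip3, and an interferon-stimulated response element (ISRE) at Trps1, all gained. At the lost sites Ap1b1 and Kcnj16 capitals mark the PU.1 motif GAGGAAGT. Each stretch is named by the protein-coding gene with the nearest transcription start site (TSS).
Il12b, chr11:44390180-44390380: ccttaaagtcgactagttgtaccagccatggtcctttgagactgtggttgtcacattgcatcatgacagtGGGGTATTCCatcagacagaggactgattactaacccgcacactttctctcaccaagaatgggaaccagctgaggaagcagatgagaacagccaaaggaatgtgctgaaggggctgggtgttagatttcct
Nfkb1, chr3:135640324-135640524: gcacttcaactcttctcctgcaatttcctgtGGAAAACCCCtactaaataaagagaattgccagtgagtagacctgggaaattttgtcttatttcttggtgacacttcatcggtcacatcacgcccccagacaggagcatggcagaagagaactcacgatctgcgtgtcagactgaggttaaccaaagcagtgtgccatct
St3gal1, chr15:67138704-67138904: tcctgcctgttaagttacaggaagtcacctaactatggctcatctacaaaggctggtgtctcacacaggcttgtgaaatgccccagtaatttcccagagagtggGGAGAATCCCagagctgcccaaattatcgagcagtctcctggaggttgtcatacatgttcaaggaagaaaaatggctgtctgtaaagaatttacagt
Tnfaip3, chr10:19046100-19046300: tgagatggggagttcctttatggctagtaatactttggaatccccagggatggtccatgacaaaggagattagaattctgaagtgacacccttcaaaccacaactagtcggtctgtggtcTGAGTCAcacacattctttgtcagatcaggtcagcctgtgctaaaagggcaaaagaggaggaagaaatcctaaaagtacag
Trps1, chr15:50703881-50704081: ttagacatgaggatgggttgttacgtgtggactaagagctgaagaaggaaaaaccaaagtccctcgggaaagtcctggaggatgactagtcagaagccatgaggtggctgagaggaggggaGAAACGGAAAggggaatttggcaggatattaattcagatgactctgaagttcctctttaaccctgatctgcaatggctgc
Ap1b1, chr11:5012456-5012656: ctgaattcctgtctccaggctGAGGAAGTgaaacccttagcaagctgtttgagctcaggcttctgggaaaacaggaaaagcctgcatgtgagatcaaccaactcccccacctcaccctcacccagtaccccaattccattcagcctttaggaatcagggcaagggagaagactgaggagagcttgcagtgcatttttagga
Kcnj16, chr11:110993635-110993835: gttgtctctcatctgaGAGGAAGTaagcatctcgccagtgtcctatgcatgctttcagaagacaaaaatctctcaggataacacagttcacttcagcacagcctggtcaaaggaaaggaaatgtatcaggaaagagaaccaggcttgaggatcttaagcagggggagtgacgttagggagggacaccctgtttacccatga

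The best-ranked gained site lay 9783 bp upstream of the TSS of Il12b, which encodes the p40 subunit shared by interleukins 12 and 23 (chr11:44389854-44390693, intergenic). In the KO 1 h lists it ranked 1239, 534 and 1842, with 195, 40 and 58 reads at the summit. In the KO 0 h lists it ranked 46686 and 34079, with 23 and 7 reads, and the third list had no peak there. Reads cannot be set side by side between lists, which differed in depth, and ranks past 24389 come from whole lists of unequal length and show only that the peak was not kept. The 3 lists at 1 h thus placed the site among their best 2000 peaks and no list at 0 h kept it.

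A site 123540 bp into Trps1, which encodes a GATA-type repressor, ranked 1725, 1791 and 1498 at 1 h and 25194, 27510 and 27143 at 0 h (chr15:50703562-50705679, intron). The promoter of Cxcl2, a neutrophil-attracting chemokine, ranked 1431, 1967 and 1574 at 1 h and 28933 and 26283 in the 0 h lists that held it (chr5:90902760-90906996). The other best-ranked gained sites lay in introns of Bahcc1, Tnfrsf8 (the receptor CD30), Ttc39c, Mtmr7 and Vmp1 (a membrane protein of autophagy), and between genes near Serp2 and Hs1bp3. Each of the 10 ranked within the best 4285 peaks of every KO 1 h list, and all 10 had a peak in both WT 1 h lists. The sites at Bahcc1 and Mtmr7 also had a kept peak in all 3 WT 0 h lists, where the other sites were in 0 or, at Cxcl2, 1 of 3.

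Absence from the equal-number lists did not always mean absence of a peak. Of the 1613 gained sites, 84 had a peak below the retained rank in all 3 whole KO 0 h lists, 539 in 2, 746 in 1 and 244 in none. The best-ranked of those 244 lay 30543 bp upstream of Tnfaip3, which encodes the ubiquitin-editing inhibitor A20 (chr10:19045777-19046581), with ranks of 3958, 2107 and 5303 and 130, 27 and 37 reads at 1 h. The next was the promoter of the chemokine gene Ccl5 (chr11:83520735-83531094), with ranks of 3518, 4892 and 3285. Sites inside St3gal1, a sialyltransferase gene, and inside Nfkb1, the gene of the p105 and p50 NF-kB subunit, followed. All 4 were in both WT 1 h lists and in no WT 0 h list, and at 18 h of LPS in KO Ccl5 kept its peak in 3 of 3 lists, St3gal1 in 1, and Tnfaip3 and Nfkb1 in none. St3gal1 and the sites after it in this order were chosen after their values were seen.

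**Figure D1:**
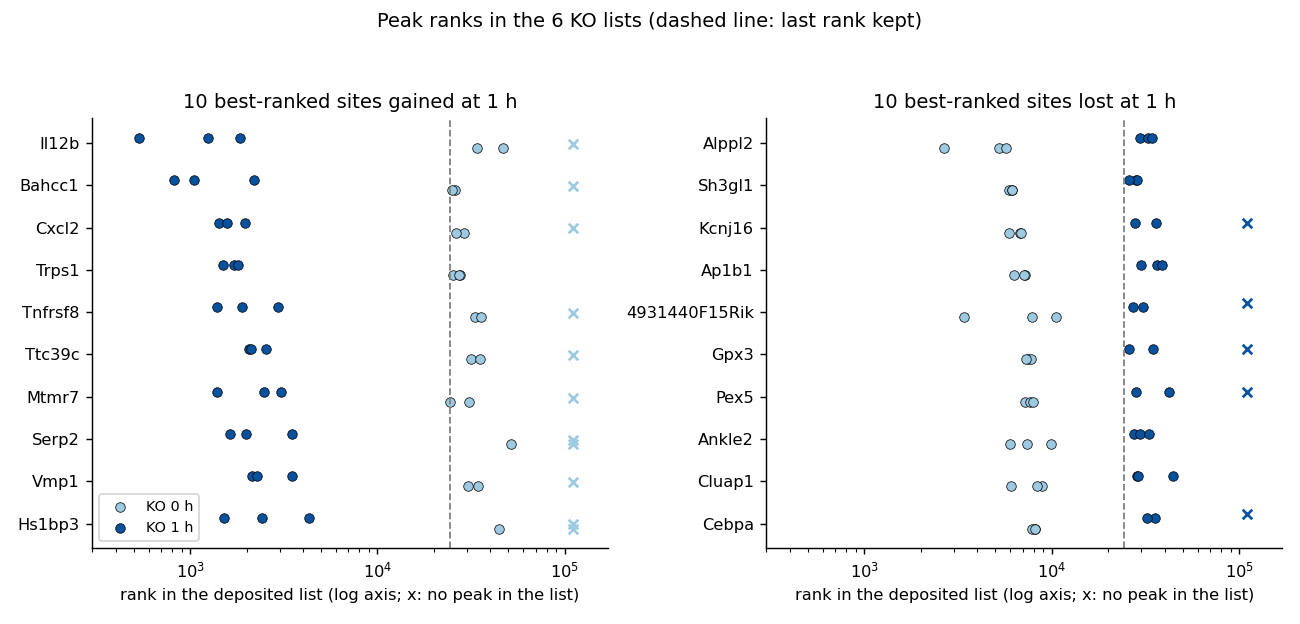
Rank of the peak in each of the 6 KO lists (log axis) at the 10 best-ranked gained sites (left) and lost sites (right), named by nearest gene. Light points are 0 h lists, dark points 1 h lists, crosses lists without any peak there, and the dashed line is rank 24389. At each gained site the dark points lie left of the line and the light points or crosses right of it, and the reverse holds at the lost sites.

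The best-ranked lost site lay in an intron of the exoribonuclease gene Dis3l2, nearest to the TSS of Alppl2 (chr1:87035246-87036744). It ranked 5200, 5683 and 2645 at 0 h and 29644, 32493 and 34335 at 1 h. A site 20332 bp upstream of Cebpa, the gene of the lineage factor C/EBPα, ranked 8103, 7868 and 8114 at 0 h and 35307 and 32322 in the 1 h lists that held it (chr7:35098340-35099381). The other best-ranked lost sites were in introns of Sh3gl1, Kcnj16, Ap1b1 (a clathrin adaptor subunit, unrelated to the transcription factor AP-1), Eml6, Golga3 and Cluap1, and between genes near Gpx3 and Pex5. The sites in Eml6 and Golga3 had 4931440F15Rik and Ankle2 as their nearest genes. All 10 had a peak in all 3 WT 0 h lists, and 2 of them, at Ankle2 and Cluap1, also in both WT 1 h lists. Those at Alppl2, Sh3gl1 and Ap1b1 had one in 1 of the WT 1 h lists.

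Lost sites were seldom without any peak at 1 h: 16 of the 1180 were in none of the whole KO 1 h lists, 227 in 1, 517 in 2 and 420 in all 3. The whole KO lists held 27429 to 70397 intervals at 0 h and 36351 to 70843 at 1 h. These counts, like those of gained sites, depend on list length, and its part was not tested. The 16 included sites near Socs6, Fnip2, Selenop, Cd36 (a scavenger receptor gene) and Atp6v0d2, and these genes were chosen after their values were seen. At the limit itself, a gained site 8097 bp from the TSS of Il16 ranked 24392 in its nearest 0 h list, just outside the retained peaks. A site 889 bp from the TSS of Zhx2 missed the gained set with a 0 h rank of 24387, although it ranked 7172, 2530 and 5406 at 1 h.

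With 3 lists against 3 the smallest p-value of an exact permutation test is 0.1, so no single gained or lost site can pass a threshold of 0.05, and the sets are descriptions. No source says that the replicates came from separate mice, so every p-value here measures the spread between these samples. Leaving out KO 0 h replicate 3 raised the lost sites to 1878.

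The 6 KO lists held 31783 to 90981 entries at 0 h and 40613 to 90176 at 1 h, and the background level of reads at a peak differed 15.0-fold between the deepest (KO 0 h replicate 1) and the shallowest (KO 1 h replicate 2). Peaks at the last retained rank rested on 5 to 56 reads at 0 h and on 6 to 33 at 1 h. Promoters of 9 or 10 of the 10 macrophage marker genes carried a kept peak in every KO list. Of the erythroid markers 6 of 6 had no promoter peak in any KO list, and so had 6 of 7 B cell, 7 of 9 neutrophil, 5 of 7 dendritic cell and 7 of 8 T cell markers, among the last 1 gene (Trac) that the annotation did not match. Stromal and endothelial promoters with a peak numbered 1 or 2 of 7 at 0 h and 3 or 4 at 1 h, with Pecam1 in each 1 h list only. The neutrophil gene Camp likewise had a promoter peak in each 1 h list only. The B cell gene Ms4a1 had one in KO 1 h replicates 1 and 2 and in no 0 h list. The dendritic cell genes Zbtb46 and Batf3 had one in fewer lists at 1 h than at 0 h. The part of such cells in the results was not tested.

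The targeted gene, Nr4a1 (ENSMUSG00000023034.7, chr15:101254269-101274795), could not be checked through its deleted part. No list of either genotype at 0 or 1 h held a peak over its coding region. Its promoter ranked 13493, 13271 and 17715 at 0 h and 10432, 9701 and 7533 at 1 h in KO.

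The positions of gained and lost sites differed from those of the sites that all 6 lists shared. Only 85 of 1613 gained sites (5.27%, 95% Wilson interval 4.28 to 6.47) had their centre within 1 kb of a TSS. The share was 16.5% (14.5 to 18.8) of lost sites and 53.4% (52.6 to 54.2) of the 14775 shared sites. Over all 34180 sites it was 30.2%. Introns held 48.4% of gained and 45.4% of lost sites, against 35.0% of all sites. Intergenic sequence held 43.7% and 33.98%, against 32.3% of all sites. The median distance to a TSS was 20.1 kb for gained, 12.9 kb for lost, 0.393 kb for shared and 8.33 kb for all sites. The median width was 805 bp for gained, 1136.5 bp for lost, 1657 bp for shared and 1159 bp for all sites. A site spans the peaks merged over the lists, so its width depends on how many lists carried it and on their peak widths. In the same order the median GC content was 48.3%, 50.7%, 57.2% and 52.2%. These intervals, like all others here, cover counting error only, and sites of the same libraries are not replicates.

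**Figure D2:**
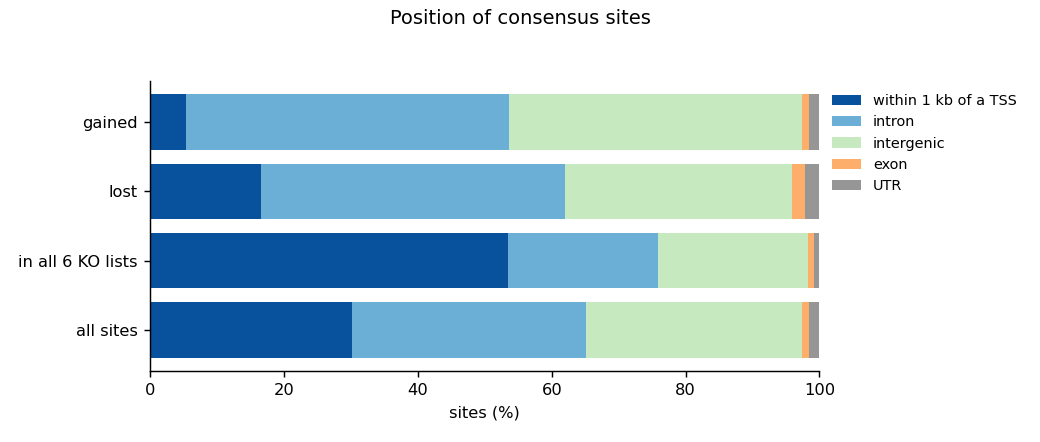
Share of consensus sites (%) by position of the site's centre, for gained, lost, shared (in all 6 KO lists) and all sites. The dark part, within 1 kb of a TSS, is 5.27% of gained, 16.5% of lost, 53.4% of shared and 30.2% of all sites.

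Motifs of the LPS-activated factors were common at gained sites and scarce at lost ones. The AP-1 motif TGAGTCA lay within 100 bp of the summit, on either strand, at 465 gained sites (28.8%, interval 26.7 to 31.1) and 60 lost sites (5.08%, 3.97 to 6.49), against 16.4% of all 34180 sites. An NF-kB motif lay at 254 gained sites (15.7%, 14.1 to 17.6) and 15 lost sites (1.27%, 0.772 to 2.09), against 4.98% of all sites. The ISRE was at 6.32% of gained and 2.37% of lost sites, against 3.60% of all. PU.1 went the other way, with 5.95% of gained and 11.7% of lost sites, against 7.79% of all. The C/EBP motif TTGCNNAA was at 13.9% of gained and 13.3% of lost sites, against 10.9% of all. Away from promoters these shares were 14.0%, 14.8% and 13.5%. The Nur77 motif NBRE (AAAGGTCA) was at 1.12% of gained and 0.932% of lost sites, against 1.05% of all.

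The position of the sites bore on these shares. Among sites away from promoters, the AP-1 motif was at 29.0% (26.8 to 31.3) of gained, 5.89% of lost and 25.3% (24.3 to 26.3) of shared sites, and at 21.7% of all such sites. For NF-kB the same shares were 15.5%, 0.711%, 5.28% and 5.32%, and for PU.1 5.89%, 13.1%, 10.5% and 9.78%. Away from promoters gained sites thus stood above the shared sites for both AP-1 and NF-kB, by less for AP-1, and lost sites lay below them for both. Both motifs together were found at 3.60% of gained sites, at 0 of the 1180 lost sites (interval up to 0.324%) and at 0.799% of all sites.

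The share of all kept peaks with these motifs was compared between the KO lists. In the equal-number lists the NF-kB motif was at 3.60%, 3.57% and 3.37% of peaks at 0 h and at 6.22%, 5.86% and 6.06% at 1 h, a difference of 2.54 percentage points. The AP-1 motif was at 13.6%, 13.2% and 12.3% at 0 h and 18.6%, 16.3% and 17.5% at 1 h, a difference of 4.47 points. The ISRE went from 2.75% ± 0.103 (SD, n = 3) to 3.71% ± 0.0744, and the STAT motif TTCCNGGAA from 0.704% ± 0.0103 to 0.801% ± 0.0118. The ranges of 0 h and 1 h did not overlap for these 4 motifs, which were higher at 1 h.

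The ranges also did not overlap for 5 motifs that were lower at 1 h. The PU.1 motif went from 7.80% ± 0.347 (SD, n = 3) to 6.64% ± 0.3403 and CTCF, the motif of the insulator protein, from 2.71% ± 0.289 to 2.19% ± 0.174. The GC-box GGGCGGG, bound by Sp factors at promoters, went from 19.5% ± 0.538 to 18.0% ± 0.0651. The EGR motif GCGTGGGCG went from 0.462% to 0.365%, and the E-box CACGTGAC from 2.12% to 1.95%. With all deposited peaks the ranges of CTCF, the GC-box, EGR and the E-box overlapped, and those of AP-1, NF-kB, ISRE, STAT and PU.1 did not. In the equal-number lists the ranges overlapped for C/EBP, RUNX (AACCACA), CRE (TGACGTCA) and NBRE, which was at 0.928% ± 0.00473 of peaks at 0 h and 0.924% ± 0.0349 at 1 h. The share of peaks within 1 kb of a TSS was 39.9%, 40.4% and 41.3% at 0 h and 37.6%, 38.6% and 38.2% at 1 h, a difference of −2.42 points, which was −7.54 points among the 10000 best peaks and −3.63 points with all deposited peaks, where the 0 h and 1 h lists overlapped (exact permutation p = 0.8).

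For each of these 9 motifs the exact permutation test reached its limit of p = 0.1 (two-sided, adjusted p = 0.144 over 13 motifs), so none passed 0.05. In WT 8 of the 9 had the same sign and the GC-box, at 18.8% of WT peaks at 0 h and 18.9% at 1 h, had the opposite one. Of the 8, the EGR motif was nearly level in WT, at 0.410% and 0.408%, and the promoter share in WT was 39.7% and 39.5%. Whether KO and WT differ in these shares was not tested.

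**Figure D3:**
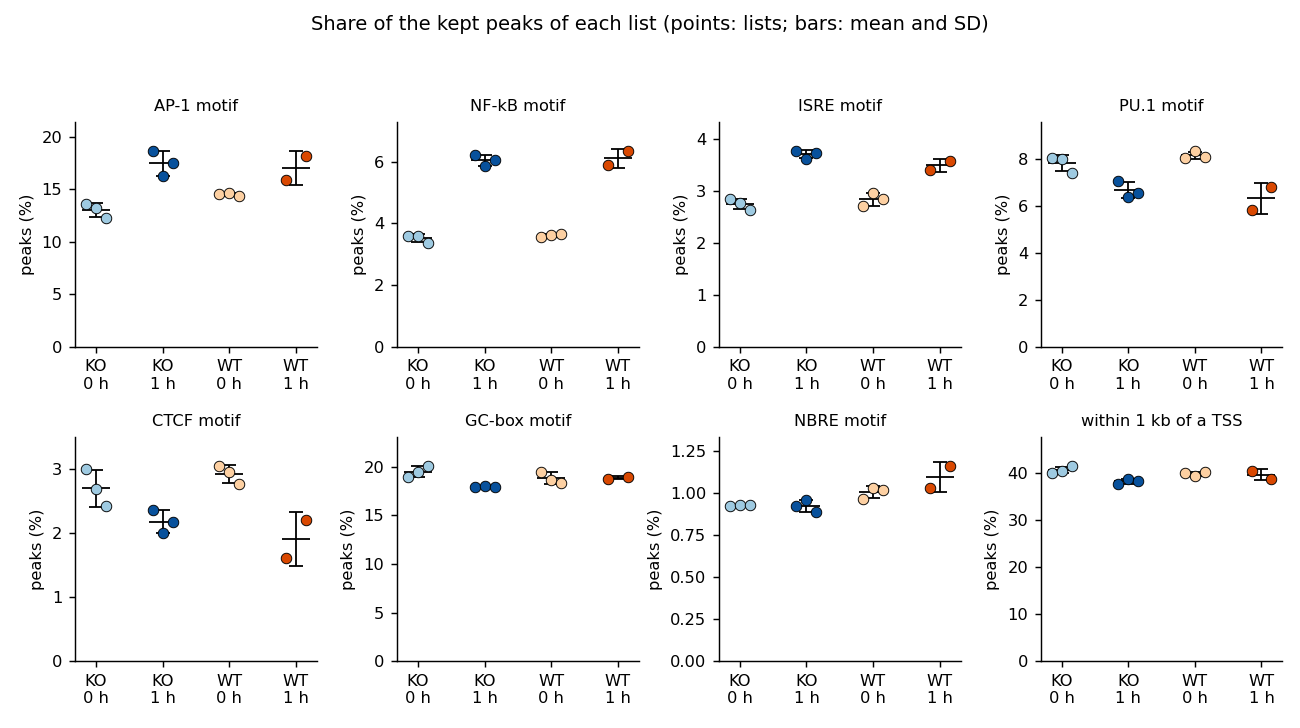
Share of the 24389 kept peaks of each list (%) with a motif within 100 bp of the summit, or within 1 kb of a TSS, in KO and WT at 0 h and 1 h. Points are lists (3 each, 2 for WT at 1 h), and bars give the mean and SD. In KO the 1 h points lie above the 0 h points for AP-1, NF-kB and ISRE, below them for PU.1, CTCF, the GC-box and promoters, and on both sides of them for NBRE.

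Gained sites had 1282 nearest genes, of which 234 had at least 2 gained sites. Adgrl2 (an adhesion receptor), Btg1 (an antiproliferative factor), Dock10 (a guanine nucleotide exchange factor) and Etv6 (an ETS-family repressor) had 6 each. Their consensus sites numbered 21, 17, 14 and 16. Nfkb1, Slc44a1, Slco3a1, St3gal1 and Tnfaip3 had 5 each, of 16, 17, 12, 22 and 20 consensus sites. Ado had 4 of 19, and further genes also had 4. Over all consensus sites 4.72% were gained. Tnfaip3 had 20 consensus sites in all, and its gained sites lay 11.3 to 152 kb from its TSS. Those of Nfkb1 were 3.0 to 27.4 kb from a TSS of the gene. None of these 10 genes had more than 1 lost site, but Slc44a1 had 2 lower and 0 higher sites and Ado had 1 lower and 3 higher.

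Lost sites had 1064 nearest genes, of which 103 had at least 2. Maf, which encodes a factor of resident-type macrophages, had 5 lost sites of 22, between 92.7 and 431 kb from its TSS, and 1 gained site. Tbxas1, the gene of thromboxane synthase, had 4 of 14. Pparg, the lipid-sensing nuclear receptor gene, had 3 of 8, the promoter among them. Chd2, Hs1bp3, Ppp1r3b, Rere, Rreb1, Sik1 and Slc16a7 also had 3 each, of 10, 11, 10, 16, 26, 8 and 5 sites. Over all consensus sites 3.45% were lost. Rreb1 had as many gained sites, 3, while Hs1bp3 had 2 and Rere 1.

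Gained sites lay close to each other more often than lost sites: 680 (42.2%) were within 100 kb of another gained site, and 350 lost sites (29.7%) were within 100 kb of another lost site. This was not tested, and gained sites were the larger set. The longest runs held 7 gained sites each, 1 near Mrpl39 on chromosome 16 (11 consensus sites over 139 kb), 1 from Etv6 to Bcl2l14 on chromosome 6 (15 sites over 219.6 kb) and 1 around Slc1a2 and Cd44 on chromosome 2 (24 sites over 288 kb). None of the 3 runs contained a lost site or a site with lower enrichment.

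The strength of the peaks that all KO samples had was compared next. At the 19550 consensus sites with a peak in all 6 whole KO lists, the fold enrichment at the summit was put on a log2 scale, quantile-normalised and tested with limma, with Benjamini-Hochberg adjustment over all 19550. At an adjusted p under 0.05, 2150 sites (11.0%) were higher at 1 h and 1583 (8.10%) were lower. The median log2 change was 0.90 at the higher sites and −0.75 at the lower sites, and 836 higher and 241 lower sites changed at least 2-fold. Away from the calls the median was −0.07. Of the gained sites 84 could be tested and 79 of these were called higher, while 174 of 420 testable lost sites were called lower, which the choice of those sets favours.

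Higher sites were mostly distal. Promoters made up 14.1% of higher, 45.4% of lower and 46.6% of all tested sites. Of 9104 promoter sites tested, 303 (3.33%) were higher and 719 (7.90%) lower, against 11.0% and 8.10% over all tested sites. In introns 17.7% were higher and 9.15% lower, and between genes 18.2% and 7.15%. The AP-1 motif was at 32.4% of higher, 5.62% of lower, 12.0% of uncalled and 13.7% of all tested sites. The NF-kB motif was at 12.9%, 1.01%, 3.58% and 4.40% of them. Promoters made up 51.1% of uncalled sites, and these motif shares were not taken apart from promoters.

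Among the 10 higher sites with the smallest p-value, the site in an intron of Ptprj, a receptor tyrosine phosphatase gene, had log2 enrichments of 3.56, 3.49 and 4.07 at 0 h and 6.21, 6.64 and 6.24 at 1 h (log2 change 2.65, SE 0.195, limma adjusted p = 2.38e-10). The gained site in Trps1 went from 3.20, 3.20 and 2.74 to 5.87, 5.86 and 5.95 (log2 change 2.85, SE 0.215, adjusted p = 2.38e-10 by limma). The site near D10Jhu81e had the largest change of the 2150, with 2.68, 3.20 and 3.33 at 0 h and 5.97, 5.91 and 5.97 at 1 h. In each the lowest 1 h value was at least 2 log2 units above the highest 0 h value. The other sites were near Ramp3 (a receptor activity-modifying protein), Ndrg1, Ano6 (a phospholipid scramblase), Tmem243, Cd82 (a tetraspanin), Stk38l and Cemip2 (a hyaluronidase), with log2 changes of 1.90 to 2.58 and adjusted p-values of 3.34e-10 to 2.31e-09 (limma). All of them were within introns or between genes.

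Among the 10 lower sites the one nearest Alppl2 went from 5.21, 5.14 and 5.66 at 0 h to 3.20, 3.08 and 3.05 at 1 h (log2 change −2.23, SE 0.229, limma adjusted p = 5.08e-08). The sites at Ap1b1 and Sh3gl1, both in the lost set, changed by −2.06 and −1.70. Sites near Rtp1 and inside St6gal1, a sialyltransferase gene, changed by −2.06 and −1.89. The promoter of Arhgap25, a Rac GTPase-activating protein of blood cells, went from 5.11, 4.97 and 5.38 to 3.06, 2.74 and 3.60 and was the 1 promoter of the 10. Sites near E330021D16Rik, Rpl3, Itgb5 (integrin β5) and 4930535I16Rik changed by −1.503 to −1.75, with adjusted p-values of 4.51e-07 to 1.05e-06 (limma).

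The count of lower sites rested on single libraries more than that of higher sites. Without KO 0 h replicate 1 it was 893 and without KO 0 h replicate 2 it was 860, while the higher sites stayed between 1615 and 2044 when any library was left out. The lists differed in depth within both groups, and the part of depth in the calls was not tested.

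Cytokine and chemokine genes had the largest share of higher sites of the 7 gene lists. Of 43 tested sites with such a gene as nearest, 27 (62.8%) were higher and 0 lower, with a median log2 change of 0.73, against 11.0% higher, 8.10% lower and −0.06 over all tested sites. At 119 consensus sites 23 (19.3%) were gained and 1 lost, in 14 genes and 1 gene, against 4.72% and 3.45% of all sites. The promoter of Ccl4, the chemokine MIP-1β, had log2 enrichments of 3.69, 3.83 and 3.76 at 0 h and 5.66, 5.47 and 5.75 at 1 h, and that of Il15 had 3.94, 3.83 and 3.92 and then 5.84, 5.61 and 5.90. At both promoters the groups lay more than 1 log2 unit apart. The Il6 promoter rose by 1.44 and the Csf1 promoter by 1.11, while the Tnf promoter, already near the top of the 0 h lists at ranks 2049, 2323 and 2029, rose by 0.62 (limma adjusted p = 0.000852). Promoters of Cxcl2, Ccl5, Il1b and Il27 were gained. A site 6963 bp from the TSS of Ifnb1, the interferon β gene, held both an AP-1 motif and an ISRE and rose by 1.84. Lif had 3 gained sites and 1 higher site, and Csf2, the gene of GM-CSF, had 2 and 3. The 1 lost site lay 22.1 kb from the TSS of Csf1. No site was assigned to Ccl22, Cxcl3, Cxcl9, Cxcl11 or Cxcl16.

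Genes of NF-kB subunits and of the proteins that restrain NF-kB had 14 gained sites of 93 (15.1%) and 0 lost, against 4.72% and 3.45% of all sites. Of 44 tested sites 20 (45.5%) were higher and 1 (2.27%) lower, against 11.0% and 8.10% over all tested sites, with a median log2 change of 0.43. The promoter of Nfkbia, which encodes the inhibitor IκBα, had 5.64, 5.62 and 5.33 at 0 h and 6.43, 6.70 and 6.59 at 1 h (log2 change 1.04, SE 0.138, limma adjusted p = 1.84e-06). Promoters of Nfkbiz (1.64), Nfkb1 (1.65), Tnfaip3 (0.90), Rel (0.63) and Nfkbie (0.49) rose as well, and the Tnip1 promoter was gained. The 1 lower site was in an intron of Tnip3, whose own promoter rose by 1.07.

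Sites of AP-1 subunit genes were called in both directions. Of 50 tested, 9 (18.0%) were higher and 6 (12.0%) lower, against 11.0% and 8.10% over all tested sites, with a median of −0.09 against −0.06. Of 91 sites 3 (3.30%) were gained and 3 (3.30%) lost, against 4.72% and 3.45% of all sites. The promoter of Maff, a small Maf protein gene, rose from 4.73, 4.84 and 4.34 to 6.12, 6.13 and 6.40. A site 59106 bp downstream of the Fos TSS rose by 1.68, and a site 5026 bp upstream of it fell by 0.70 on the log2 scale. The site 6476 bp upstream of Fosb fell from 5.93, 6.38 and 6.44 to 5.11, 4.84 and 5.11 (log2 change −1.23, SE 0.161, limma adjusted p = 1.73e-06). Atf3 had 2 sites higher, 2 lower and 1 lost. A site 163 kb upstream of Jun was lost, Jdp2 had 2 gained sites and Fosl2 had 1. The Mafg promoter fell by 0.50 on the log2 scale.

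Among immediate-early and signal brake genes 21 of 108 tested sites (19.4%) were higher and 7 (6.48%) lower, against 11.0% and 8.10% over all tested sites. Of 211 sites 16 (7.58%) were gained and 5 (2.37%) lost, against 4.72% and 3.45% of all sites. The Socs3 promoter, of a gene that restrains cytokine receptors, rose from 4.96, 4.68 and 4.96 to 6.12, 6.40 and 5.97. Klf6 had 5 higher and 2 gained sites, and 1 site of Dusp6, an ERK phosphatase gene, fell by 1.02 on the log2 scale. The promoter of Nr4a1 itself rose from 4.19, 4.24 and 3.76 to 4.62, 4.74 and 4.92 in KO (log2 change 0.70, SE 0.221, limma adjusted p = 0.0244), with 0.72 in WT, and a site 4112 bp upstream of a TSS rose by 0.77, with 0.07 in WT. The promoter of its relative Nr4a2 had a log2 change of −0.03 (limma adjusted p = 0.9401).

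The list of LPS receptor and signalling genes, which also held effector genes that LPS induces, had 32 higher sites of 71 (45.1%) and 3 (4.23%) lower, against 11.0% and 8.10% over all tested sites. Of 125 sites 12 (9.60%) were gained and 1 lost, against 4.72% and 3.45% of all sites. The 12 effector genes (Cd40, Icam1, Sod2, Ptgs2, Nos2, Acod1, Marcksl1, Plaur, F3, Gadd45b, Mmp13 and Slc7a11), set apart after the values were seen, held 15 of the higher and 7 of the gained sites. The 24 receptor and signalling genes proper held 17 higher sites of 48 tested (35.4%), 3 lower and 5 gained. The Tlr2 promoter rose from 3.49, 3.69 and 3.33 to 4.99, 4.84 and 5.22, and that of Cd40, a co-stimulatory receptor gene, from 4.24, 4.24 and 4.55 to 5.80, 5.77 and 5.75. The Cd14 promoter rose by 0.93, and the Ptgs2 promoter, of cyclooxygenase 2, by 1.04. A site 33561 bp upstream of Nos2, the inducible nitric oxide synthase gene, held NF-kB and ISRE motifs and rose by 1.93. Traf1 had 2 gained sites, its promoter included, and 3 higher sites. Of the 3 lower sites 2 were of Map3k8 and 1 of Ikbke, both kinase genes.

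Interferon response genes had the lowest share of higher sites of the 7 lists. Of 30 tested sites 5 (16.7%) were higher and 0 lower, against 11.0% and 8.10% over all tested sites, with a median log2 change of 0.04 against −0.06. Of 69 sites 3 (4.35%) were gained and 0 lost, against 4.72% and 3.45% of all sites. The Ifit3 promoter, with an ISRE, rose by 1.49, those of Cmpk2 and Ifih1 by 0.96 and 0.76, and the Gbp5 promoter was gained. The other 2 higher sites were near Rsad2 and Mx1.

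Macrophage lineage genes were the list with more lost than gained sites, 15 (6.94%) against 9 (4.17%) of 216, where 3.45% of all sites were lost and 4.72% gained. Of 122 tested sites 23 (18.9%) were higher and 15 (12.3%) lower, against 11.0% and 8.10% over all tested sites. Of its 23 tested promoter sites 8 were lower and 1, at Zeb2, higher, where 7.90% of all tested promoter sites were lower and 3.33% higher. The Mef2c promoter fell most, from 4.85, 5.18 and 4.44 to 3.48, 3.65 and 3.05 (log2 change −1.43, SE 0.248, limma adjusted p = 9.20e-05). The Cebpa promoter, ranked 390, 477 and 335 at 0 h, ranked 1618, 1261 and 2719 at 1 h, a log2 change of −0.54. The promoters of Maf (−0.85), Pparg (−0.87), Lyz2 (−0.61), Trem2 (−0.58), Mertk (−0.56) and Spi1, the PU.1 gene (−0.55), were also lower. Sites at Runx1 and Zeb2, in contrast, held 6 and 5 of the 23 higher sites, with log2 changes of up to 2.27 at 316 kb upstream of Runx1 and 2.06 in an intron of Zeb2. Both introns of Csf1r, the receptor gene for macrophage colony-stimulating factor, that were called were lower, by −0.52 and −0.74.

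**Figure D4:**
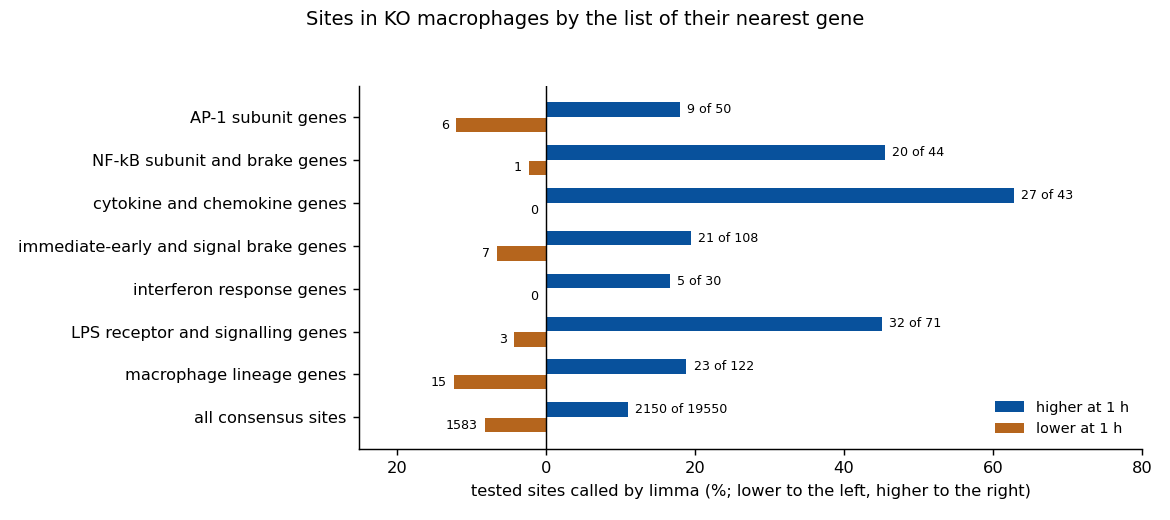
Percent of tested sites called higher (right) or lower (left) at 1 h in KO by limma, for 7 lists of nearest genes and for all 19550 tested sites. Labels give the number called. The bars to the right are longest for cytokine and chemokine genes (27 of 43), and the bars to the left for macrophage lineage genes (15) and AP-1 subunit genes (6).

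WT cells were used to check the KO sets. Of the gained sites, 72.7% and 87.2% carried a kept peak in the 2 lists of WT cells at 1 h, and 6.39%, 6.76% and 7.38% did so in the 3 lists at 0 h. Of the lost sites, 86.8%, 87.5% and 92.5% did so at 0 h and 17.4% and 15.8% at 1 h. The WT groups did not overlap in either case (differences of 73.1 and −72.3 percentage points, exact permutation p = 0.1, the smallest 2 lists against 3 allow). The difference for gained sites was 41.8 points with all deposited peaks and 41.2 points with a peak required to cover at least 50% of a site. The same all-or-none change was seen in WT at 940 gained sites (58.3%) and 661 lost sites (56.0%), and the opposite one at 2 and 0 sites. In 35 gained sites all 3 WT 0 h lists had a kept peak, and 59 lost sites had one in both WT 1 h lists.

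Changes in enrichment were compared in the same way. Of 2000 sites higher in KO that could be fitted in WT, 94.8% were higher there too, with median log2 changes of 0.91 in KO and 0.73 in WT. Of 1183 lower sites 95.0% were lower in WT, with medians of −0.71 and −0.64. The KO medians are over sites chosen by their KO values, and of the sites not called in KO 68.2% had the same sign in WT. The difference between the KO and WT responses was tested with limma at 15754 sites with a peak in all 11 lists. No site passed an adjusted p of 0.05, and the median SE of the difference was 0.29. At an unadjusted p under 0.05 the signed log2 change was higher in KO than in WT at 713 sites and lower at 699. The smallest adjusted p was 0.102, near Ncoa1. Without WT 1 h replicate 3, 358 and 181 sites passed, and without WT 1 h replicate 1-2 0 and 6 did. Both fits have 1 WT list at 1 h, which is assumed to vary like the lists of the other groups. These comparisons were added after seeing the data.

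**Figure D5:**
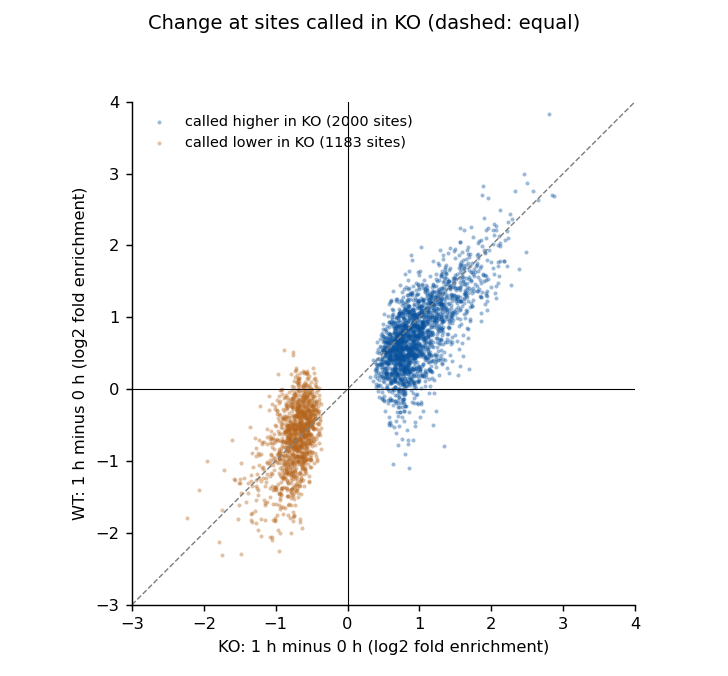
Log2 change in fold enrichment from 0 h to 1 h in KO (x axis) and WT (y axis) at 2000 sites called higher and 1183 sites called lower in KO. Each point is a site, and the dashed line marks equal changes. Of the higher sites 94.8% lie above 0 in WT, and of the lower sites 95.0% below 0.

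At 18 h of LPS in KO, gained sites had a kept peak in 28.9%, 35.5% and 38.0% of cases in the 3 lists. Peaks of the first of these lists had a median width of 135 bp, against 527 and 456 bp in the others. Of the 1613, 276 (17.1%) were in all 3 lists at 18 h and 769 (47.7%) in none. Of the lost sites, 33.6%, 47.2% and 44.6% had a peak in the 18 h lists, 221 (18.7%) of the 1180 in all 3 and 387 (32.8%) in none. The share of all consensus sites with a peak in these lists was not taken. The values therefore do not show whether gained sites persisted or lost sites returned more than other sites. Peaks at the last retained rank of the 18 h lists rested on 7, 6 and 8 reads. The Il12b site was in all 3 lists at 18 h and the Cebpa site in 1.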

How the data were processed

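ATAC-seq peak lists of 17 samples were used, 1 list per sample. The authors trimmed reads with cutadapt 2.6, mapped them to mm10, dropped duplicates, mitochondrial reads and those with a mapping quality under 20, and made 1 peak call per sample at q 0.001, as the peak names show. The peak caller's version is not given in the sources used here, and the read counts compared by the authors with DiffBind 3.0.15 were not used here. In the deposited lists the score is an integer form of the q-value, the fold column is a ratio, the summit's pileup over its local background, and p-values and q-values are on the −log10 scale.

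Identical intervals were collapsed to the highest −log10 p, and the best 24389 kept, with ties broken at random (seed 1). Those ties held up to 13.9% of a KO list. Reads at a summit were recovered from the fold column, taking its smallest step as 1 read, and came out whole (within 0.05) in 100% of entries of under 200 reads. Depth is known only through these reads, so scores and folds were not compared between lists without normalisation. A promoter lay within 1 kb of a protein-coding TSS in GENCODE M21. Sequence came from RefSeq's GRCm38.p6. NF-kB, ISRE and CTCF motifs were searched with degenerate consensus letters. The limma 3.58.1 fit (R 4.3.3, trend and robust) and the site building were tested on simulated data. Exact permutation tests were two-sided.

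Members and gene lists were chosen with earlier results of these data known. The text names the 10 gained and 10 lost sites of best mean rank, the 10 genes with most of each, the 10 higher and 10 lower sites of smallest p, and a selection of the list members with a gained, lost or called site. Alternatives were other peak numbers, site rules, windows, limma settings, left-out libraries and a replicate block. The WT lists at 18 h served only to build sites.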

Additional observations from a re-analysis of the deposited data

How the results depend on the processing

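Site counts depended on how absence was defined. With the 10000 best peaks of each list 832 sites were gained and 506 lost. With a peak required to cover at least 50% of a site there were 995 and 250, and with absence required from the whole lists of the other side 244 and 16. All deposited peaks gave 1175 gained and 141 lost sites, and 3 in place of 7 of the 11 motifs other than AP-1 and NF-kB whose ranges did not overlap. Leaving out 1 KO list gave 1790 to 2232 gained and 1462 to 1878 lost sites, 1615 to 2044 sites with higher and 860 to 1534 with lower enrichment, and 7 to 8 such motifs. With array weights 2642 and 2244 sites were higher and lower. The differences in AP-1, NF-kB and promoter shares and both WT checks kept their direction under every alternative run, although the WT check of gained sites was 41.8 percentage points with all deposited peaks and 41.2 with the cover rule, against 73.1. The promoter difference was −7.54 points with the 10000 best peaks and −3.63 points with all deposited peaks, where the exact permutation test gave p = 0.8.

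Pairing by replicate number was not clear, and 3 lists per group cannot exclude it. Deviations of same-numbered lists correlated with r of 0.114, 0.024 and −0.005. The 0.114 was the highest of all pairs, but not every list correlated best with its own number. With the replicate number as a block limma called 2226 higher and 1695 lower sites, and the shares kept their differences (4.47, 2.54 and −2.42 points) at p = 0.25 in an exact permutation test, its lower limit for 3 pairs. Peaks at the last retained rank rested on as few as 5 reads, and a site missing from a shallow list may lie below its detection limit.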
